A study of Homo sapiens with 6 samples.

Results

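The insulin-like growth factor (IGF) system was examined in Rh30 cells through 10 genes, the ligands IGF2 and IGF1, the receptors IGF1R, INSR and IGF2R, and the binding proteins IGFBP2 to IGFBP6. Its probes were all those that the array's platform annotation assigns to these symbols, 15 of the 47323 on the array. Rh30 is a single line grown from a human alveolar rhabdomyosarcoma, a tumour of skeletal muscle character, and carries the PAX3-FOXO1 fusion. There were 6 samples. A control siRNA was given to 3 of them, and the other 3 were given siP/CAF, an siRNA against P/CAF, the lysine acetyltransferase and coactivator that KAT2B encodes. RNA was prepared 72 h after transfection, and the study asked how gene expression answers to the loss of P/CAF. Each sample was read on 1 bead array. No source used here says that the samples of a group were separate cultures, so the p-values speak only of the scatter among these 6 samples, and that scatter may be technical.

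IGF2 and IGF1 are secreted peptides that activate the tyrosine kinase receptor IGF1R, and IGF2 also binds an isoform of the insulin receptor INSR. Both receptors signal through IRS adaptors to PI3K and AKT and through SHC and GRB2 to the RAS-MAPK pathway. IGF2R does not signal in this way but removes IGF2 from the cell surface to lysosomes, and the secreted binding proteins hold the ligands in complexes. IGF2 is an imprinted gene, and its high expression in rhabdomyosarcoma is well known.

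The siRNA lowered its target: the KAT2B signal was 749, 608 and 1093 in the controls, against 178, 172 and 136 after siP/CAF, a log2 difference of -2.77 (adjusted p = 1.91e-04, limma with Benjamini-Hochberg correction). Between 20891 and 21421 probes were detected per array, and 11806 named genes were tested. Of 12 markers of the labelled cell type 9 were tested, while TFAP2B, CDH3 and CHRNG were detected on 0 arrays. All 9 had a difference below 0. MYOG, which drives terminal muscle differentiation, was the only 1 of the 9 to pass the test, at -1.67, beside 3.09% of all tested genes that passed with a fall. The summed signal of the 9 markers was 29866 to 43146 on control arrays and 24515 to 28708 on siP/CAF arrays. Markers of other cell types were mostly dim: 1 of 5 epithelial, 1 of 5 endothelial, 2 of 5 leukocyte, 2 of 6 fibroblast and 2 of 4 hepatocyte genes were tested. CD68 (signals 694 to 842) and COL1A1 (219 to 272) were detected on all 6 arrays, as was the dimmer CD14 (107 to 144). COL1A2 was detected on 3 control and 0 siP/CAF arrays, and KRT8 on 2 control arrays and 1 siP/CAF array. None of these named genes passed the test in limma. EPCAM, CDH1, VWF, KDR, PTPRC, CD3E, PDGFRA and APOA1 were detected on 0 arrays. Among those tested, the adhesion receptor PECAM1 fell by 0.59 on the log2 scale (signals 501 to 718 in the controls, against 378 to 438 after siP/CAF), and the protease inhibitor SERPINA1 rose by 1.50. The PECAM1 call was kept in 8 of 15 alternative analyses and, of the arrays left out in turn, only without control array 3, while the untested endothelial genes CDH5 and TEK were detected on 0 control arrays and on up to 2 siP/CAF arrays per probe. The tested hepatocyte markers summed to 368 to 381 in the controls, against 644 to 679 after siP/CAF, and this rise was that of SERPINA1, since ALB measured -0.03 and was not called. The part of any of these markers in the results on IGF genes was not tested, and in bulk RNA fewer cells of a type and less RNA per cell cannot be told apart.

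After siP/CAF, the binding protein gene IGFBP6 rose 2.57-fold, the ligand gene IGF2 fell 1.64-fold and the binding protein gene IGFBP2 fell 1.64-fold. The IGF2 and IGFBP2 calls were each lost in 5 of the 6 fits that left out 1 array, and the IGFBP6 call in 1 of them. All 3 were lost when dim probes were not filtered out. Probes detected on at least 3 of the 6 arrays were tested, which held for 10 of the 15 probes and 8 of the 10 genes. Each gene was counted by its brightest tested probe, and a change means an adjusted p under 0.05 (limma, Benjamini-Hochberg adjustment over all tested probes). By this rule 3 of the 8 tested genes changed, 1 higher and 2 lower, against 5.37% of all tested genes (2.28% higher and 3.09% lower). By probe, 4 of the 10 passed, against 4.58% of all tested probes. The arrays of the groups did not overlap for 4 of the 8 genes, 1 higher and 3 lower, against 27.7% of all tested genes (12.6% higher and 15.1% lower). The same 4 genes had an unadjusted p under 0.05 in limma, against 20.6% of all tested genes (9.05% higher and 11.5% lower). The median log2 difference, siP/CAF minus control siRNA, was 0.03 over the 8 genes and -0.01 over all tested genes. The genes had been chosen with results on them known, so these shares describe them and test nothing. The deposited bead signals of every probe are plotted by array, and the fitted differences with their intervals.

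**Figure D1:**
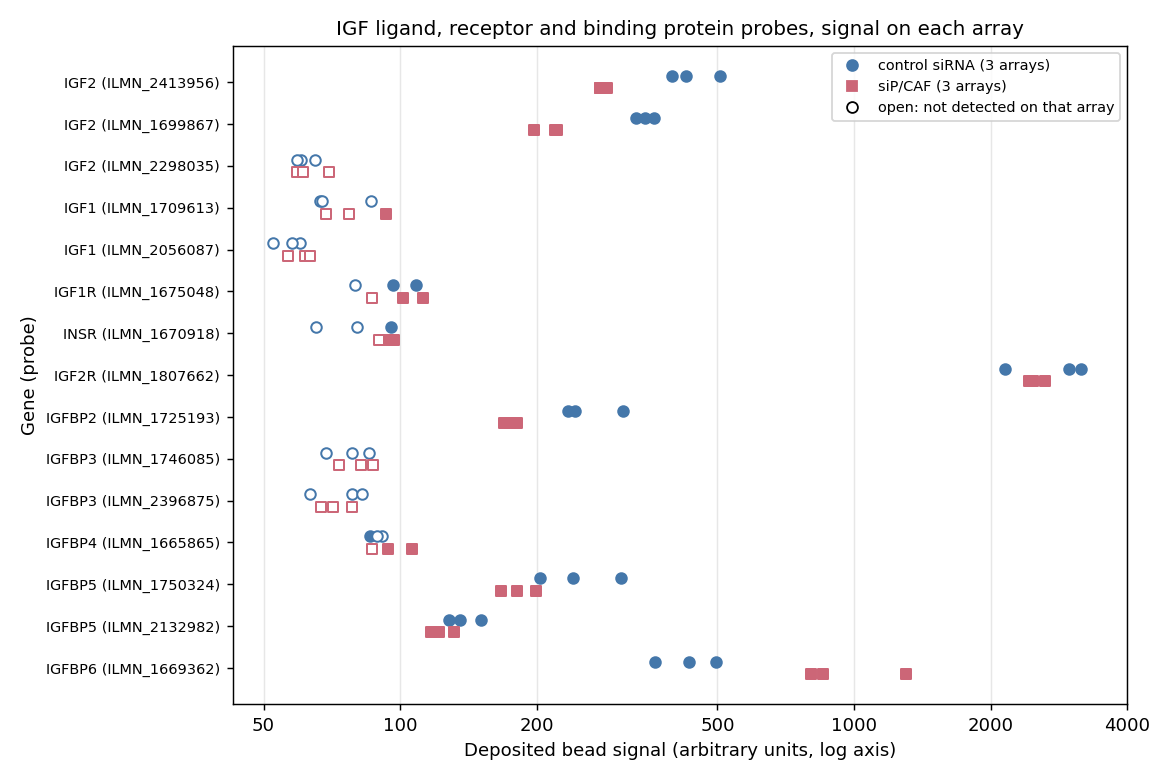
Deposited bead signal (arbitrary units, log axis) of the 15 probes of the 10 IGF-system genes on each of 3 control siRNA arrays (circles) and 3 siP/CAF arrays (squares); open symbols were not detected on that array (detection p of 0.05 or more). IGFBP6 lies at 364 to 497 in the controls, against 805 to 1304 after siP/CAF, the bright IGF2 probes and IGFBP2 lie lower after siP/CAF without overlap, and IGF1 and IGFBP3 lie among undetected probes. Signals of different probes are not comparable with each other.

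**Figure D2:**
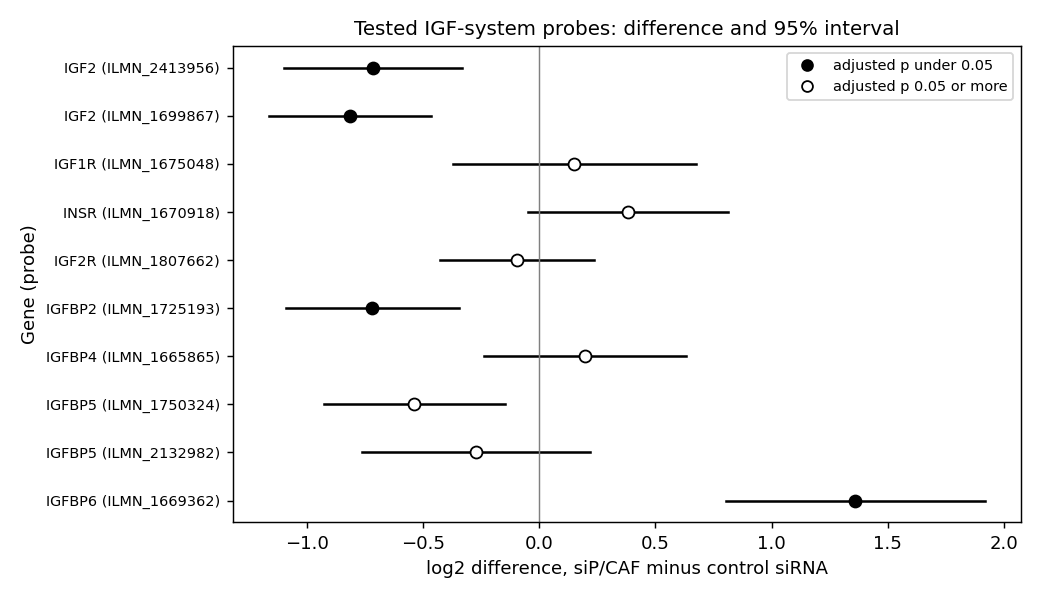
Log2 difference, siP/CAF minus control siRNA (points), with the 95% confidence interval of limma's fit (lines), for the 10 tested probes of 8 genes; filled points have an adjusted p under 0.05. Both bright IGF2 probes (-0.71 and -0.81) and IGFBP2 (-0.72) lie below 0, IGFBP6 (1.36) lies above it, and the intervals of IGF1R, INSR, IGF2R, IGFBP4 and the dimmer IGFBP5 probe include 0.

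Among the binding proteins the change of greatest size was that of IGFBP6, which binds IGF2 with marked preference over IGF1. Its probe (ILMN_1669362) gave 497, 432 and 364 signal units in control siRNA arrays 1, 2 and 3 and 856, 805 and 1304 in siP/CAF arrays 1, 2 and 3. Every siP/CAF array was above every control array, and siP/CAF array 3 stood above the other two. On the normalized log2 scale the means were 8.50 ± 0.36 in the controls, against 9.86 ± 0.44 after siP/CAF (SD, n = 3). IGFBP6 rose by 1.36 with an SE of 0.25 and a 95% confidence interval of 0.81 to 1.92 (adjusted p = 0.0161, limma with Benjamini-Hochberg correction). The size depended on array 3 of both groups: the difference was 1.11 without siP/CAF array 3 and 1.17 without control array 3. The call was lost without control array 1 (adjusted p = 0.0718, limma with Benjamini-Hochberg correction).

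The bases around the annotated start of IGFBP6 are shown because it is the gene of the system that rose, and P/CAF acts at gene regulatory regions. The sequence is from RefSeq on GRCh38.p14, chr12:53097417-53097716, plus strand, from 250 bases before to 50 bases after the start, in which capitals mark CANNTG (the E-box, bound by MYOD1 and myogenin with E proteins) and GTAAACA (a forkhead motif).
IGFBP6 start: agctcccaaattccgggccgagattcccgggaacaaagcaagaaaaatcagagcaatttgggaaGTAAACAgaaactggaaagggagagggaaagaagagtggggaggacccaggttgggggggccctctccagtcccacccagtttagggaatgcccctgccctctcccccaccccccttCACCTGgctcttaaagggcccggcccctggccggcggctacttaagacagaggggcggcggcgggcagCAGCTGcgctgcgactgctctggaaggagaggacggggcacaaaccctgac
CANNTG matched 2 times, with first bases at -69 and -1 from the start. It occurs in 68.7% of the 35116 windows of this length in the same table. GTAAACA matched 1 time, at -186, and occurs in 3.42% of windows. GGGCGG (a GC box) matched 1 time, at -17 (45.0% of windows), and CATTCC (a TEAD motif) 1 time, at -101 (14.0% of windows). TGANTCA (the AP-1 motif, 7.71% of windows) had no match. Both strands were searched and 0 bases of the window were shared by different motifs. These matches are letters and not measured binding.

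IGF2 was lower after siP/CAF on both of its detected probes. The brighter probe (ILMN_2413956) gave 507, 425 and 397 signal units in control arrays 1, 2 and 3 and 276, 285 and 275 in the siP/CAF arrays. Its siP/CAF arrays lay close together below all 3 controls. The normalized means were 8.55 ± 0.27 and 7.83 ± 0.05 on the log2 scale (SD, n = 3). The difference was -0.71 with an SE of 0.17 and a 95% confidence interval of -1.10 to -0.33 (adjusted p = 0.0460, limma with Benjamini-Hochberg correction). The dimmer probe (ILMN_1699867) gave 362, 330 and 347 in the controls, against 222, 220 and 197 after siP/CAF, again without overlap. It fell by 0.81 with an SE of 0.16, a 1.76-fold fall (adjusted p = 0.0204, limma with Benjamini-Hochberg correction). A further IGF2 probe (ILMN_2298035), annotated to the same transcript accession as the brighter one, read 59.3 to 69.7 and was detected on 0 arrays.

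The readthrough gene INS-IGF2, which overlaps IGF2, has probes of its own in the annotation. Its detected probe (ILMN_2250521) gave 254, 216 and 299 in the controls, against 176, 169 and 167 after siP/CAF, with no overlap. It fell by 0.73 with an SE of 0.15 (adjusted p = 0.0280, limma with Benjamini-Hochberg correction). Whether this probe also reads IGF2 transcripts was not tested, so it is no independent measure. Its other probe, like that of INS, was detected on 0 arrays. The second ligand gene, IGF1, was at background: its probe ILMN_1709613 read 66.5 to 86.4 in the controls, against 68.7 to 93.2 after siP/CAF and was detected on 1 array, siP/CAF array 1. The other IGF1 probe was detected on 0 arrays, and neither was tested.

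IGFBP2, the binding protein that carries an integrin-binding motif and is secreted by many tumours, fell beside IGF2. Its probe (ILMN_1725193) gave 309, 234 and 242 in the controls, against 175, 169 and 181 after siP/CAF. The groups did not overlap, and control array 1 was the highest. The normalized means were 7.64 ± 0.22 and 6.92 ± 0.13 on the log2 scale (SD, n = 3). IGFBP2 fell by 0.72 with an SE of 0.17 and a 95% confidence interval of -1.09 to -0.35 for the difference (adjusted p = 0.0412, limma with Benjamini-Hochberg correction).

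IGFBP2 has 3 annotated starts in the RefSeq table on GRCh38.p14, all on the plus strand. Windows around the first and second are shown for comparison with the IGFBP6 window, at chr2:216632578-216632877 and chr2:216633170-216633469, with the same motifs in capitals.
IGFBP2 first start: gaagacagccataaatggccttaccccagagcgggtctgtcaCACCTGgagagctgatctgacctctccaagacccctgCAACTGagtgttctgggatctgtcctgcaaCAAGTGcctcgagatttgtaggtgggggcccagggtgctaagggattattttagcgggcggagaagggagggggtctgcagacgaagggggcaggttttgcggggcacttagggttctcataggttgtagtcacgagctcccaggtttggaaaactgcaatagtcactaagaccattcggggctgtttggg
IGFBP2 second start: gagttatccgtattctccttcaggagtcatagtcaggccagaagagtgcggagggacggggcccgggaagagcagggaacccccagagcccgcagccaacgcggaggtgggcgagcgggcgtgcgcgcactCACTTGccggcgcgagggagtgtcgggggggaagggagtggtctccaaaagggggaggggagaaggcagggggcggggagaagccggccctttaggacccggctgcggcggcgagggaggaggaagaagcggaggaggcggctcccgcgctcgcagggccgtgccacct
The first window held CANNTG 3 times, at -208, -171 and -141, and the second 1 time, at -119. GGGCGG matched 1 time in each, at -86 and -49, and the other 3 motifs had no match. The third window held none of the 5 motifs. The G and C content was 55.3% and 70.0% in the windows shown and 61.7% in that of IGFBP6. Which start Rh30 cells use was not measured.

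IGFBP5, a binding protein found in extracellular matrix and in differentiating muscle, is the neighbour of IGFBP2 on chromosome 2. Its brighter probe (ILMN_1750324) gave 241, 203 and 307 in the controls, against 181, 199 and 167 after siP/CAF. The groups did not overlap, but control array 2 and siP/CAF array 2 were close. The difference was -0.54 with an SE of 0.17 and a 95% confidence interval of -0.93 to -0.15, and it did not pass (adjusted p = 0.119, limma with Benjamini-Hochberg correction). The dimmer IGFBP5 probe (ILMN_2132982) gave 136, 150 and 128 in the controls, against 131, 122 and 117 after siP/CAF, groups that overlapped. Its difference was -0.27, with an interval of -0.76 to 0.22.

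The remaining binding proteins were near or below detection. IGFBP4, an inhibitory binding protein cleaved by the protease PAPPA, read 91.1, 85.9 and 88.7 in the controls, against 86.8, 94.0 and 106 after siP/CAF. Its probe was detected on 1 control and 2 siP/CAF arrays, and its difference of 0.20 had an interval of -0.24 to 0.63. The probes of IGFBP3, the main carrier of IGFs in blood, read 68.5 to 87.0 (ILMN_1746085) and 63.3 to 82.5 (ILMN_2396875) and were detected on 0 arrays. Its neighbour on chromosome 7, IGFBP1, was detected on 1 siP/CAF array and was not tested. IGFBP7, a related secreted protein that binds IGFs weakly, measured -0.41 with an adjusted p of 0.340 in limma.

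None of the 3 receptor genes passed the test (limma), and 0 had an unadjusted p under 0.05, beside 5.37% and 20.6% of all tested genes. IGF2R was bright, with signals of 2974, 2147 and 3160 in the controls, against 2483, 2627 and 2432 after siP/CAF. The siP/CAF arrays lay within the range of the controls. The difference was -0.09 with a 95% confidence interval of -0.43 to 0.24, which bounds any change of IGF2R on this probe more closely than that of the other receptors (adjusted p = 0.812, limma with Benjamini-Hochberg correction).

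IGF1R and INSR, the signalling receptors, were read by 1 dim probe each. IGF1R gave 96.3, 79.7 and 109 in the controls, against 112, 102 and 86.9 after siP/CAF, and was detected on 2 arrays of each group. Its difference was 0.15 with a 95% confidence interval of -0.37 to 0.67 (adjusted p = 0.810, limma with Benjamini-Hochberg correction). INSR gave 80.5, 65.1 and 95.6 in the controls, against 97.0, 89.9 and 94.4 after siP/CAF, and was detected on 1 control and 2 siP/CAF arrays. Control array 3 lay among the siP/CAF arrays. Its difference was 0.38 with an interval of -0.05 to 0.81 (adjusted p = 0.328, limma with Benjamini-Hochberg correction). For both, the signal was close to background, and the data bound the change only within these intervals.

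The calls within the IGF system held to different degrees with fewer arrays. Over all tested genes, 703 changed without control array 3 and between 209 and 356 without each other array, against 634 with all 6 arrays. When each array was left out in turn, the IGF2 difference on the brighter probe ranged from -0.86 to -0.59 and that of IGFBP2 from -0.85 to -0.65, and each kept its call only without control array 3 (adjusted p between 0.0178 and 0.169 for IGF2 and between 0.0205 and 0.158 for IGFBP2, limma with Benjamini-Hochberg correction). The dimmer IGF2 probe and INS-IGF2 likewise kept their calls only without control array 3, with differences from -0.87 to -0.70 and from -0.82 to -0.64. IGFBP6 kept its call in 5 of the 6 fits, with differences from 1.11 to 1.52. Control array 3 held the lowest control value of both IGF2 (8.25 on the brighter probe) and IGFBP6 (8.11) on the normalized log2 scale and the highest of the brighter IGFBP5 probe (7.81). No left-out array turned the direction of IGF2, IGFBP2, IGFBP5 or IGFBP6, as the plot of these fits shows.

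**Figure D3:**
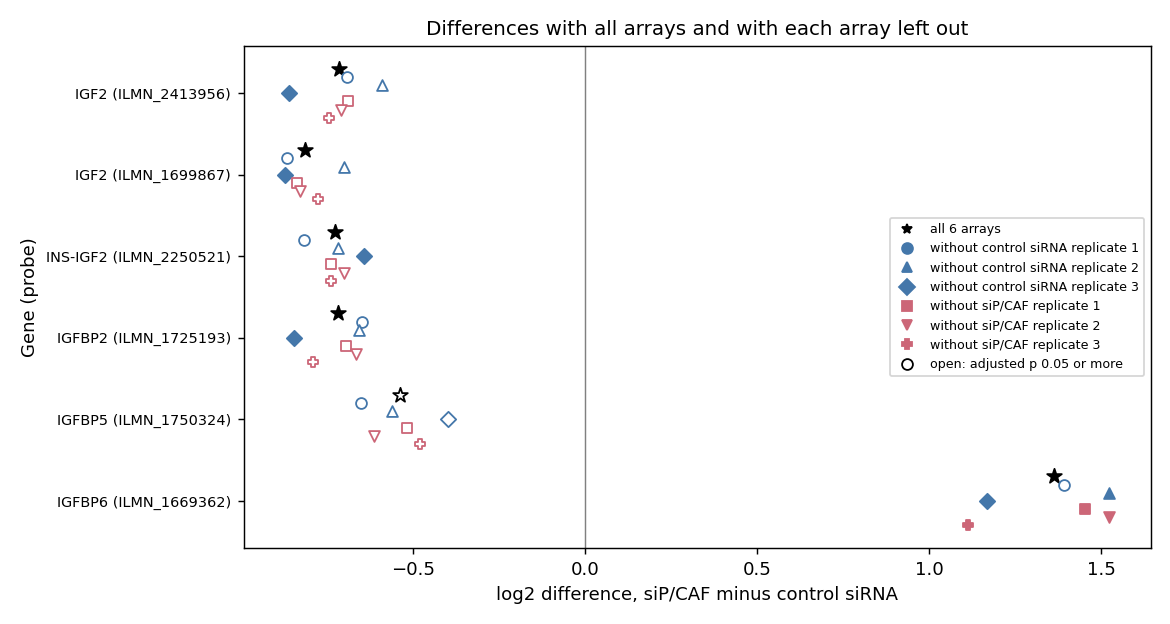
Log2 difference, siP/CAF minus control siRNA, for 6 probes with all 6 arrays (stars) and with each array left out (other symbols; blue for a control siRNA array, red for a siP/CAF array); open symbols have an adjusted p of 0.05 or more. All fits of IGF2, INS-IGF2, IGFBP2 and IGFBP5 lie below 0 and those of IGFBP6 above it, with IGFBP6 between 1.11 and 1.52.

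For each changed gene, the 4 tested genes with the most similar pattern were found by the root mean square distance between the 6 normalized log2 values, each gene centred on its own mean. Nearest to IGF2 were AKR7A3 (distance 0.05), GNB1L (0.07), GUSBP19 (0.07) and DDIT4 (0.07), a stress-induced inhibitor of mTORC1. Nearest to IGFBP2 were MXD3 (0.03), a member of the MAX network, DDIT4 (0.05), SSU72 (0.05) and PIN4 (0.06). DDIT4 stood on both lists and fell by 0.72 (adjusted p = 0.0318, limma with Benjamini-Hochberg correction), a call lost without any array but control array 3 (adjusted p up to 0.129). Nearest to IGFBP6 were SFTA1P (0.07), GLIPR1 (0.14), ATP5MK (0.18) and GPSM3 (0.18), and GLIPR1 rose by 1.34 (adjusted p = 0.00684, limma with Benjamini-Hochberg correction). Among these nearest genes, AKR7A3, GUSBP19, PIN4 and ATP5MK did not pass (adjusted p = 0.0762, 0.0542, 0.0601 and 0.0629, limma with Benjamini-Hochberg correction). The distances describe 6 arrays that share the same 2 groups.

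The wider pathway was read from lists of genes, again each by its brightest tested probe. Among proteases that cleave IGF binding proteins and the inhibitors of those proteases, 8 of 15 were tested, 2 rose and 0 fell, beside 2.28% of all tested genes that rose and 3.09% that fell. PLAU, which encodes the plasminogen activator urokinase, gave 3469, 2217 and 3238 in the controls, against 7762, 8272 and 6534 after siP/CAF. PLAU rose by 1.37 with an SE of 0.17 (adjusted p = 0.00261, limma with Benjamini-Hochberg correction), and kept its call whichever array was left out. STC2, a stanniocalcin that inhibits PAPPA, gave 2850, 1996 and 3010 in the controls, against 4557, 4941 and 4270 after siP/CAF. STC2 rose by 0.86 (adjusted p = 0.0154, limma with Benjamini-Hochberg correction), a call that held without control array 3 or siP/CAF array 3 but not without each of the others (adjusted p up to 0.0739). PAPPA itself measured 0.36, its inhibitor STC1 0.56, the plasminogen activator PLAT 0.44 and the gelatinase MMP2 -0.68, none of which passed. The list's median was 0.40, against -0.01 over all tested genes. Of the 8, 6 had an unadjusted p under 0.05 in limma, beside 20.6% of all tested genes.

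None of the tested genes that make, sort or regulate IGF2 passed the test in the fit reported here. Of 6 tested genes of precursor processing and secretion, 0 passed in limma and 0 had an unadjusted p under 0.05, beside 5.37% and 20.6% of all tested genes. The convertases measured -0.28 (PCSK5) and -0.11 (PCSK7) and the chaperone HSP90B1, which folds IGFs, 0.16. Of 10 IGF2 mRNA-binding proteins and regulators, 0 passed in limma and 3 had an unadjusted p under 0.05, as did 20.6% of all tested genes. HMGA2 measured 0.48, on a dim probe, and CTCF, the insulator protein of the imprinted locus, -0.48. ZFP57, a zinc finger protein that maintains imprints, was detected on 0 control arrays (79.2 to 93.1) and on all 3 siP/CAF arrays (90.9 to 113). These signal ranges overlap, while the normalized log2 values of the groups did not, and ZFP57 did not pass. The mRNA-binding proteins IGF2BP1, IGF2BP2 and IGF2BP3 measured -0.26, -0.05 and 0.15.

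The imprinted neighbourhood of IGF2 was mostly dim. H19, the noncoding RNA that shares its imprinting control, was detected on 0 arrays, and so were the neighbours INS, TH, CDKN1C and PHLDA2. Of the 6 tested neighbours 0 passed in limma and 0 had an unadjusted p under 0.05, beside 5.37% and 20.6% of all tested genes. NAP1L4 measured -0.33, MRPL23 -0.25 and CD81 0.13. In the wider network of imprinted genes 1 of 12 tested members changed, beside 5.37% of all tested genes. DLK1, a transmembrane protein of fetal tissue, gave 148, 113 and 137 in the controls, against 107, 103 and 95.5 after siP/CAF. DLK1 fell by 0.74 (adjusted p = 0.0267, limma with Benjamini-Hochberg correction), and kept the call without control array 3 but lost it without any other array (adjusted p up to 0.102). The call was also lost without background correction, where the difference was -0.38, with an offset of 50, with the series matrix values and with a replicate block. It was kept in 6 of 15 alternative analyses. A dimmer DLK1 probe was detected on 1 array and was not tested. Of 12 tested genes of mannose-6-phosphate sorting, the route served by IGF2R, 0 passed in limma and 3 had an unadjusted p under 0.05: the adaptor GGA2 (-0.53), AP1M1 (-0.52) and TBC1D5 (-0.56). That share is near the 20.6% of all tested genes. GGA2 and AP1M1 were each called in 4 of 15 alternatives, namely without background correction, with an offset of 50, with the series matrix values and with array weights.

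Downstream of the receptors, DEPTOR changed most clearly. DEPTOR, an inhibitory subunit of the mTOR complexes, gave 229, 160 and 245 in the controls, against 118, 115 and 111 after siP/CAF. It fell by 1.36 with an SE of 0.16, a 2.56-fold fall (adjusted p = 0.00185, limma with Benjamini-Hochberg correction), and kept its call whichever array was left out. Without background correction the difference was -0.84 and kept its call. A dimmer DEPTOR probe fell by 1.31. DEPTOR was the 1 gene to change of 29 tested adaptors and PI3K-AKT members, whose median was 0.01, beside 5.37% of all tested genes. Of the 29, 10 had an unadjusted p under 0.05 in limma, beside 20.6% of all tested genes. The groups did not overlap for 13 of them, beside 27.7% of all tested genes. The receptor substrates IRS1 and IRS2 measured -0.30 and 0.47 and the kinase AKT1 -0.92 (adjusted p = 0.300, 0.117 and 0.0514, limma with Benjamini-Hochberg correction). In the RAS-MAPK arm 0 of 17 tested genes passed in limma and 0 had an unadjusted p under 0.05, beside 5.37% and 20.6% of all tested genes. RPS6KA3 and SPRED1 measured 0.33 each and SOS2 -0.32, and dimmer RPS6KA3 probes measured -0.10 and 0.50. RPS6KA3 and SPRED1 were called with array weights.

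FOXO factors and FOXO-responsive genes, which insulin and IGF signals hold down through AKT, included 2 falls and no rise among 16 tested, beside 3.09% of all tested genes that fell and 2.28% that rose. Of the 16, 7 had an unadjusted p under 0.05 in limma, beside 20.6% of all tested genes. Their median was -0.31, against -0.01 over all tested genes, and neither fall was stable to leaving out arrays. TXNIP, an inhibitor of thioredoxin and of glucose uptake, gave 3895, 3464 and 5232 in the controls, against 2266, 2601 and 2146 after siP/CAF. TXNIP fell by 0.85 (adjusted p = 0.0378, limma with Benjamini-Hochberg correction), a call kept without control array 3 and lost without any other array (adjusted p up to 0.132). The mitochondrial coactivator gene PPARGC1A gave 103, 88.2 and 118 in the controls, where every array detected it, against 85.6, 67.8 and 82.9 after siP/CAF, where none did. By the bound described below, which is not a confidence limit, it was at least 1.29-fold lower after siP/CAF. It was called by the test of the normalized values, not of this bound (adjusted p = 0.0498, limma with Benjamini-Hochberg correction). That call was kept in 2 of 14 alternative analyses. It was lost whichever array was left out (adjusted p up to 0.177) and without background correction. The factors FOXO1, FOXO3 and FOXO4 measured -0.39, -0.34 and -0.52, and none passed. Whether the FOXO1 probe also reads the PAX3-FOXO1 fusion transcript was not tested.

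**Figure D4:**
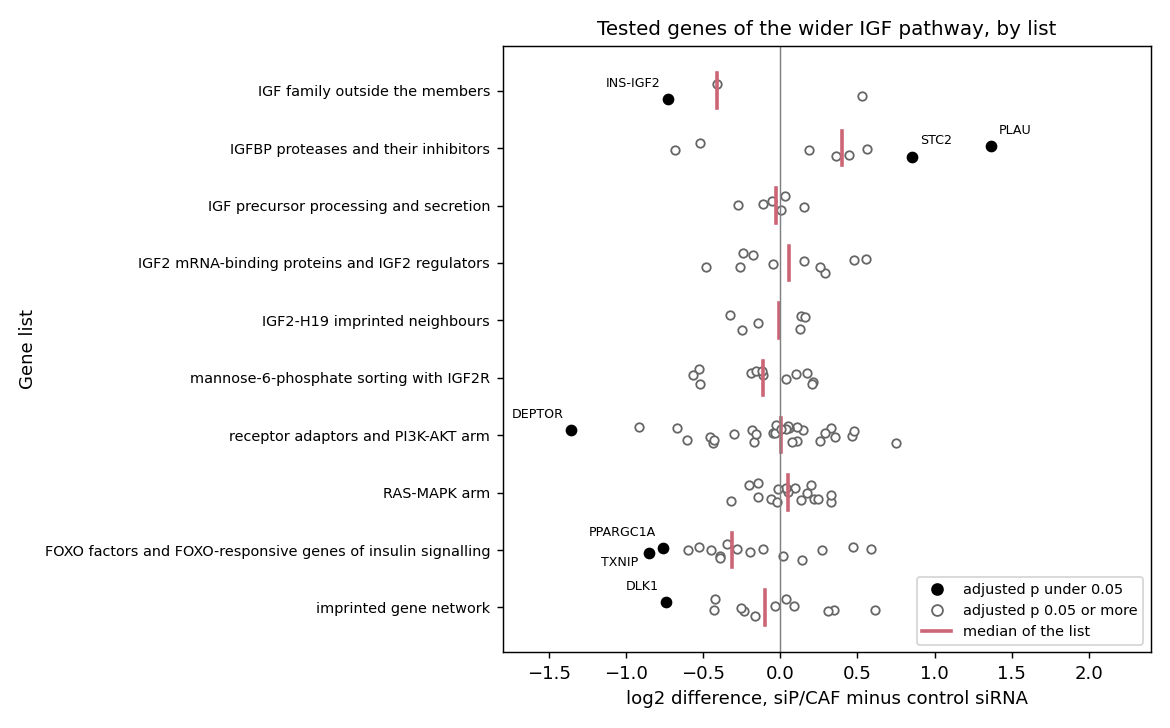
Log2 difference, siP/CAF minus control siRNA, of the tested genes in 10 lists of the wider IGF pathway, each gene by its brightest tested probe (points, spread vertically for sight); filled points have an adjusted p under 0.05 and are named, and vertical bars are list medians. PLAU (1.37) and STC2 (0.86) lie to the right, DEPTOR (-1.36) to the left, and 5 of the 10 lists hold no filled point.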

How the data were processed

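Expression was read on Illumina HT-12 arrays of 1 colour, per the labels' protocols, in 3 control siRNA and 3 siP/CAF samples. The third siP/CAF sample has no number in its title and is called array 3. The deposited table holds each probe's bead signal as an intensity on a linear scale, not normalized between arrays, per the file headers. A second deposited column is a score that the file headers call a p-value; because it rises with the signal, it was taken as 1 minus the detection p. The deposited series matrix holds values read as log2 and centred on each probe, because they followed the centred log2 signals of the same arrays (r between 0.933 and 0.970, slopes between 0.850 and 1.07); each column's median was 0. The matrix served as an alternative. The sources used here do not say how it was normalized or which software made the tables.

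Signals were corrected by normexp with detection p-values, raised by an offset of 16, quantile normalized between arrays and put on the log2 scale with limma 3.58.1 in R 4.3.3. The two-sided test was lmFit and eBayes with no block, on probes detected (p under 0.05) on 3 or more of the 6 arrays. Genes were named from the platform annotation, in which 30113 probes have 1 symbol, 8 several and 17202 none here; 30074 matched the GRCh38.p14 gene table. The array tables name no genome build. A gene undetected on all arrays of a group has a bound: the brighter group's mean against the dim group's, in which each array counts at its lowest detected probe's value unless the gene itself read higher. Arrays of a group correlated at 0.981 to 0.994, 0 pairs were identical, and the number of arrays limits the precision. Error values are SD over 3 arrays.

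The genes and pathway lists were chosen with earlier results of these data known. Named are all 10 genes, KAT2B, each list's changed genes or else its 3 of smallest p, and the 4 genes nearest each changed gene. Named after their values were seen are PAPPA, STC1, PLAT, ADAMTS1, MMP2, IGFBP7, IGFBP1, IGF2BP1 to IGF2BP3, IRS1, IRS2, AKT1, FOXO1, FOXO3, FOXO4, ALB, second probes and undetected genes. Promoter windows came from RefSeq for 9 of the 10 genes. Alternatives were other background corrections, scalings, filters and variance models, the matrix, a replicate block and each array left out.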

Additional observations from a re-analysis of the deposited data

How the results depend on the processing

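The call of IGF2, IGFBP2 and IGFBP6, and of no other gene of the system, was the same without background correction, with an offset of 50, with median scaling, with detection required on all 6 arrays, with the series matrix values and with an intensity trend. With array weights 1748 genes changed in place of 634, and INSR joined these 3. With no filter on dim probes 0 of the 10 genes passed in limma (4 had an unadjusted p under 0.05, and adjusted p-values were 0.0549 for IGFBP6, 0.0599 for IGFBP2 and 0.0696 for IGF2), while more probes were tested. With 1 array left out, between 209 and 703 genes changed, and between 0 and 3 of the IGF-system genes: 0 without control array 1 (4 at an unadjusted p under 0.05), 3 without control array 3 and 1, IGFBP6, without each other array. The titles of 2 samples per group share a number, and same-numbered arrays deviated oppositely from their group means (r = -0.15 and -0.41). Such deviations cancel within a group of 3 arrays, so they cannot tell whether same-numbered samples were made together. With the replicate block 442 genes changed, among them IGF2 (-0.89), IGFBP2 (-0.92) and IGFBP6 (0.92), so 3 of the 8 as before. The third array of each group shares no number, so these differences rest on arrays 1 and 2 alone; the dimmer IGF2 probe and INS-IGF2 were not called. Signs turned, none of them called, for IGF2R (0.0032), IGFBP4 (-0.0193), PCSK7 (0.013) and KRT8 (-0.0929) with the block. They also turned with arrays left out for IGF1R (range -0.0236 to 0.374, below 0 without siP/CAF array 1) and KRT8 (range -0.168 to 0.144, below 0 without control array 1 or siP/CAF array 3). Of 147 values of the system's probes under alternatives, 144 kept their direction and 123 also their side of the threshold. Signal over background limits IGF1R, INSR, IGFBP4, IGF1 and IGFBP3; the number of arrays limits the rest. The causes were not tested.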
